A study of Mus musculus with 8 samples.

Results

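The Hox genes encode homeodomain transcription factors that give cells their place along the head-to-tail axis and along the limbs. In the mouse they form 4 clusters, HoxA to HoxD, in which a gene's place in the cluster, its paralog position, parallels where along the body axis it is used: low positions act towards the head and high positions towards the tail. Fibroblasts and preadipocytes keep a set of active Hox genes that reflects the body site from which they came. All genes named Hox with a cluster letter and a paralog number were taken, 39 of the 23699 genes listed, of which 11 were in HoxA, 10 in HoxB, 9 in HoxC and 9 in HoxD.

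RNA was sequenced in 3T3-L1 cells, a preadipocyte line derived from mouse embryo fibroblasts. There were 4 libraries of cells given siRNAs against Fto (siFto) and 4 of cells given nontargeted siRNAs (siCtr). Both groups received a pool of 3 siRNAs at 40 nM for 24 hours with a lipid reagent before the cultures were confluent, and both were preadipocytes at 2 days past confluence. Fto encodes an RNA and DNA demethylase, and the comparison asks how transcript levels differ between siFto and siCtr cells. A single pool targeted Fto, so an effect of lower Fto and any other effect of these siRNAs cannot be told apart.

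Levels are in FPKM, which divides the fragments of a gene by its length and the depth of the library, so genes of different length can be set side by side. Fto itself averaged 12.1 ± 1.29 FPKM in siFto cells and 55.3 ± 0.647 FPKM in siCtr cells (SD, n = 4 each), a fall of 78.1% (exact two-sided permutation test, p = 0.0286, the smallest that 4 against 4 allows). The libraries summed to 454737 to 484842 FPKM, and 11351 to 11397 genes reached 1 FPKM in each. The label of a preadipocyte was checked against markers. Of 10 listed markers of fibroblasts and preadipocytes, 9 averaged at least 1 FPKM over the 8 libraries and Cd34 did not. Pdgfra, among the 9, averaged 208 ± 4.63 FPKM in siFto cells and 240.1 ± 9.97 FPKM in siCtr cells (SD, n = 4 each). The directions of the others are given below. The marker lists of other cells had low sums: 1.84 to 2.51 FPKM in siFto cells and 1.43 to 1.89 FPKM in siCtr cells for 5 macrophage and blood genes, 1.46 to 2.17 FPKM in siFto cells and 1.35 to 2.23 FPKM in siCtr cells for 4 muscle genes, and 2.17 to 2.84 FPKM in siFto cells and 1.97 to 2.33 FPKM in siCtr cells for 4 neural genes. Sums were at most 0.571 FPKM for endothelial and 0.0970 FPKM for epithelial genes. Most of these sums came from Cd68 and Csf1r (blood), Des (muscle) and Tubb3 (neural), while Emr1, Myod1, Sox2, Epcam and Krt18 were listed at 0 in all 8 libraries. Csf1r was higher in all siFto libraries, at 0.933 ± 0.102 FPKM in siFto cells and 0.672 ± 0.0866 FPKM in siCtr cells (SD, n = 4 each), below the minimum for testing. The labels name 1 cell line and do not say whether the 4 replicates were separate cultures, so the p-values measure the spread between these samples, which may be technical.

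The cells carried a partial Hox code. A mean of at least 1 FPKM over the 8 libraries, the minimum for testing, was reached by 15 of the 39 Hox genes: 7 in HoxA, 3 in HoxB, 1 in HoxC and 4 in HoxD. In HoxA they included Hoxa2, Hoxa3, Hoxa4, Hoxa5, Hoxa6 and Hoxa7, and none of Hoxa9, Hoxa10, Hoxa11 and Hoxa13 exceeded 0.467 FPKM in any library. In HoxB they were Hoxb2, Hoxb3 and Hoxb4. HoxC had a single member above the minimum, Hoxc13 at its tail end, which is known for its role in hair and nail formation. In HoxD they were Hoxd3, Hoxd4, Hoxd8 and Hoxd9.

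**Figure D1:**
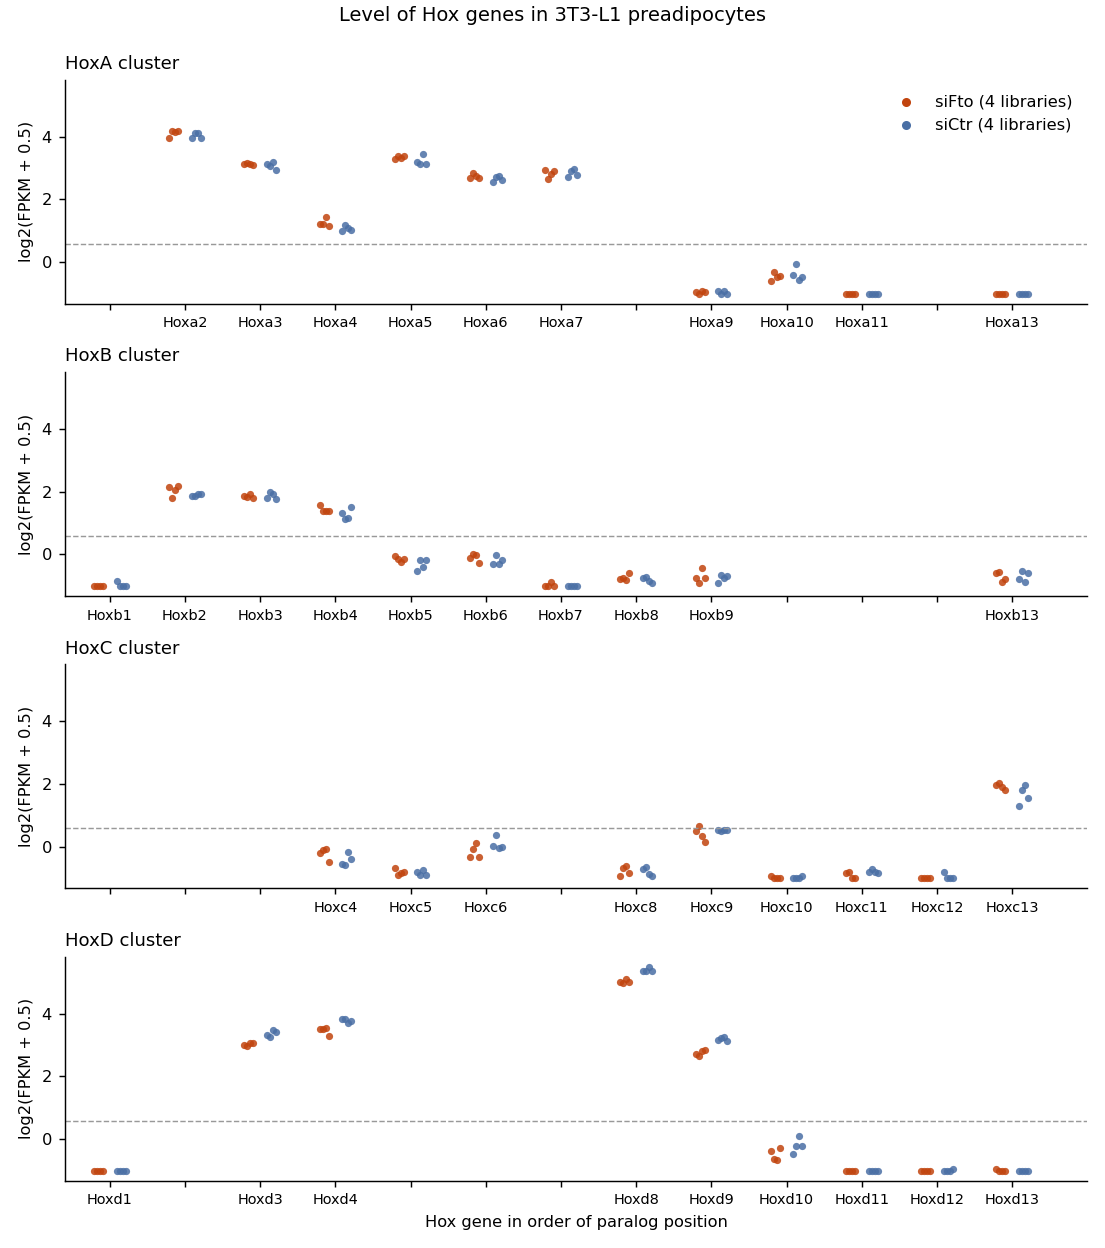
Level of Hox genes in every library, on a log2(FPKM + 0.5) axis, with one panel per cluster and genes in order of paralog position. The siFto libraries are drawn in orange to the left of the siCtr libraries in blue, and the dashed line marks 1 FPKM. Not every Hox gene is drawn. Among those drawn, expressed genes lie at positions 2 to 7 of HoxA and 2 to 4 of HoxB. In HoxC they lie at position 13, and in HoxD at 3, 4, 8 and 9. For the 4 HoxD genes the orange points lie below the blue ones.

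The other 24 Hox genes did not reach the minimum. Hoxa11, Hoxa13, Hoxd1 and Hoxd11 were listed at 0 in all 8 libraries, and of the 20 others with some signal 11 also averaged under 0.1 FPKM. The remaining 9 averaged 0.1 to 1 FPKM. Nearest below the minimum was Hoxc9, at 0.920, 1.08, 0.776 and 0.613 FPKM in siFto cells and 0.955, 0.931, 0.948 and 0.951 FPKM in siCtr cells. Nearest above it was Hoxa4, which averaged 1.75 FPKM over the 8 libraries.

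Hoxd8 was the most abundant Hox transcript, and 22.5% of the 11398 genes tested were at its level or above. Hoxa2, which patterns the hindbrain and the second branchial arch, came next at a mean of 16.4 FPKM over the 8 libraries, followed by Hoxd4 at 11.9 FPKM. The ranges of these 3 genes did not overlap in siCtr cells, nor in siFto cells. Below them the order was Hoxa5, Hoxd3, Hoxa3, Hoxd9, Hoxa7 and Hoxa6, between 9.23 and 6.003 FPKM, and among these the order depended on the group: Hoxd3 lay below Hoxa5 without overlap in siFto cells and overlapped it in siCtr cells. Hoxb2, Hoxb3, Hoxc13, Hoxb4 and Hoxa4 followed, from 3.44 to 1.75 FPKM, and neighbours in that order overlapped in each group, except Hoxc13 and Hoxb4, which overlapped in siCtr cells but not in siFto cells.

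In siFto cells against siCtr cells, 4 of the 15 tested Hox genes fell and none rose. All 4 that fell were the expressed HoxD genes, Hoxd3, Hoxd4, Hoxd8 and Hoxd9, each by 20.4 to 28.4%. Among all 11398 tested genes 12.3% fell and 6.97% rose, 19.3% in all (limma on log2(FPKM + 0.5), Benjamini-Hochberg adjusted over all tested genes, threshold 0.05). Scaling the libraries to a common median ratio gave 1086 genes higher and 1218 lower in place of 794 and 1401, with the same 4 Hox genes called. The median log2 fold change was 0.07 over the 15 tested Hox genes and -0.02 over all tested genes.

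Hoxd8, in the middle of the cluster (mm9 chr2:74543546-74545364), acts in the trunk and the limbs. It had 31.6, 30.7, 33.9 and 31.5 FPKM in siFto cells, against 40.4, 40.1, 44.3 and 40.5 FPKM in siCtr cells. All 4 siFto libraries lay below all 4 siCtr libraries, by a margin larger than the range within siFto cells. Hoxd8 averaged 31.9 ± 1.40 FPKM in siFto cells and 41.3 ± 2.00 FPKM in siCtr cells (SD, n = 4 each), a fall of 22.7%. The fold change was -0.37 on the log2 scale (SE 0.04, limma adjusted p = 5.06e-04).

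Hoxd9, its neighbour on the tail side (mm9 chr2:74535820-74538265), is used in forelimb and lower spine patterning. It had 6.001, 5.77, 6.48 and 6.65 FPKM in siFto cells, against 8.46, 8.92, 9.08 and 8.31 FPKM in siCtr cells. The groups again did not overlap, and this was the largest of the 4 falls, 28.4% or -0.45 on the log2 scale (SE 0.06, adjusted p = 5.38e-04). Only 1.64% of all tested genes had a fold change as low or lower, against 3.19% for Hoxd8, 3.55% for Hoxd3 and 4.59% for Hoxd4.

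Hoxd3, which helps pattern the first neck vertebrae, had 7.41, 7.23, 7.79 and 7.83 FPKM in siFto cells, against 9.53, 8.998, 10.7 and 10.1 FPKM in siCtr cells. The siFto libraries were close together and all below the siCtr libraries, which were more spread. The fold change was -0.36 (SE 0.06, adjusted p = 0.00237), a fall of 23.1%. Hoxd4, another gene of the neck region and hindbrain, had 10.9, 10.9, 11.1 and 9.21 FPKM in siFto cells, against 13.7, 13.64, 12.5 and 13.01 FPKM in siCtr cells. Its siFto replicate 4 was the lowest of all, and the other siFto libraries were also below every siCtr library. The fold change was -0.32 (SE 0.06, adjusted p = 0.00577), a fall of 20.4%.

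**Figure D2:**
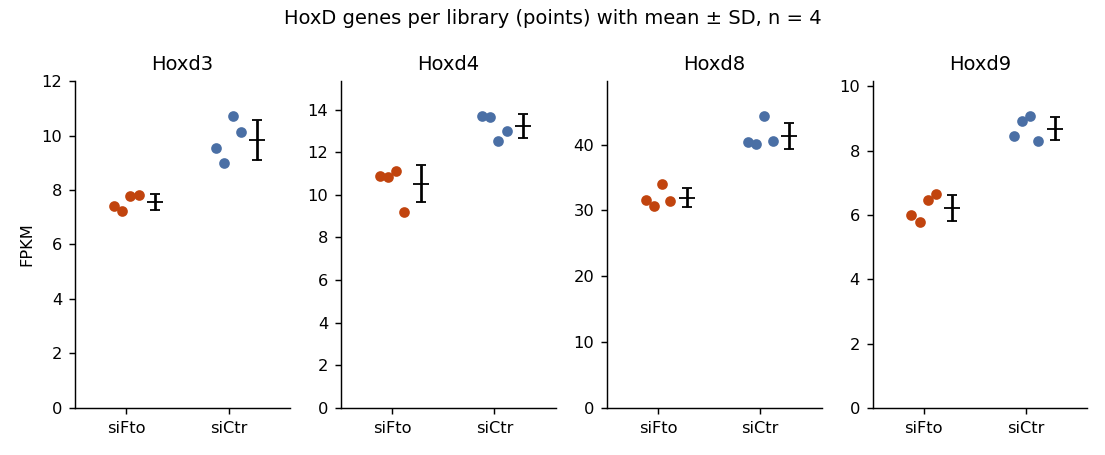
FPKM of the 4 expressed HoxD genes, with a panel per gene and its own vertical axis from 0. Points are the 4 siFto libraries (left, orange) and the 4 siCtr libraries (right, blue), and black bars give the mean ± SD. In each panel every siFto point lies below every siCtr point, as for Hoxd8 at 30.7 to 33.9 against 40.1 to 44.3 FPKM.

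Groups without overlap, with siFto lower, were seen for these 4 Hox genes and for 15.1% of all tested genes. No Hox gene had all siFto libraries higher, against 9.08% of all tested genes. The number of fragments behind each value, worked out from the width of the deposited intervals, was 774 to 1179 for Hoxd8, 468 to 775 for Hoxd4, 394 to 627 for Hoxd3 and 228 to 408 for Hoxd9. The deposited loci of Hoxd3 (mm9 chr2:74550050-74586328) and Hoxd4 (mm9 chr2:74560035-74567216) overlap each other and Mir10b, and that of Hoxd3 also overlaps 1700109F18Rik. In HoxA, the locus of Hoxa3 overlaps Hoxa4, Hoxa5, Hoxa6 and 2700086A05Rik, and the loci of Hoxa5 and Hoxa6 also overlap 2700086A05Rik. The labels and file headers do not say whether counting used strand, and the authors' software divided fragments among these overlapping genes. The loci of Hoxd8 and Hoxd9 overlap no other listed gene.

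The falls were near in size, and the make-up of the cluster hardly differed. Hoxd8 gave 56.5% ± 0.436 of the summed HoxD FPKM in siFto cells and 56.2% ± 0.786 in siCtr cells (SD, n = 4 each). Hoxd4 gave 18.6% ± 1.43 in siFto cells and 18.0% ± 1.28 in siCtr cells, Hoxd3 gave 13.4% ± 0.476 in siFto cells and 13.4% ± 0.703 in siCtr cells, and Hoxd9 gave 11.03% ± 0.660 in siFto cells and 11.8% ± 0.383 in siCtr cells. The other HoxD gene with signal in every library, Hoxd10, stayed under the minimum for testing, at 0.264, 0.151, 0.135 and 0.322 FPKM in siFto cells and 0.213, 0.367, 0.562 and 0.358 FPKM in siCtr cells. These values overlapped and rested on 4 to 18 fragments per library.

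Summed over each cluster, HoxD came to 56.5 ± 2.09 FPKM in siFto cells and 73.5 ± 2.50 FPKM in siCtr cells (SD, n = 4 each). HoxA came to 53.6 ± 1.61 FPKM in siFto cells and 50.9 ± 3.90 FPKM in siCtr cells. The sums for HoxB were 10.2 ± 0.570 FPKM in siFto cells and 9.31 ± 0.371 FPKM in siCtr cells, and those for HoxC were 5.11 ± 0.646 FPKM in siFto cells and 4.71 ± 0.697 FPKM in siCtr cells. HoxD thus held 43.9 to 45.9% of all Hox FPKM in the siFto libraries, against 51.9 to 54.2% in the siCtr libraries, and HoxA held 41.5 to 43.9% in the siFto libraries, against 35.5 to 37.8% in the siCtr libraries. These sums and shares follow from the single genes and were not tested.

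By paralog position, the summed level at position 8 was 32.1 ± 1.40 FPKM in siFto cells and 41.5 ± 1.97 FPKM in siCtr cells, and at position 9 it was 7.21 ± 0.294 FPKM in siFto cells and 9.75 ± 0.378 FPKM in siCtr cells. Hoxd8 and Hoxd9 gave most of the signal at these positions, and Hoxc9 gave most of the rest at position 9. Positions 3 and 4 also include expressed HoxA and HoxB genes. Position 3 summed to 18.9 ± 0.294 FPKM in siFto cells and 21.0 ± 1.19 FPKM in siCtr cells, and position 4 to 14.99 ± 1.17 FPKM in siFto cells and 17.0 ± 0.488 FPKM in siCtr cells. The summed level was below 1 FPKM at positions 10, 11 and 12 in each group.

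None of the 7 expressed HoxA genes passed the test. Hoxa2 had 14.9, 17.6, 17.3 and 17.4 FPKM in siFto cells and 15.1, 16.8, 16.9 and 14.9 FPKM in siCtr cells. The groups overlapped, with a log2 fold change of 0.07. Hoxa3, needed for thymus and parathyroid formation, had 8.16, 8.47, 8.28 and 8.13 FPKM in siFto cells and 8.23, 7.87, 8.67 and 7.10 FPKM in siCtr cells. Hoxa4 had 1.83, 1.81, 2.18 and 1.72 FPKM in siFto cells and 1.49, 1.76, 1.65 and 1.55 FPKM in siCtr cells. Their fold changes were 0.05 for Hoxa3 and 0.17 for Hoxa4, and again the groups overlapped.

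Hoxa5, which acts in lung and trunk development, had 9.16, 9.81, 9.42 and 9.85 FPKM in siFto cells and 8.70, 8.16, 10.4 and 8.30 FPKM in siCtr cells. The siCtr replicate 3 was the highest of the 8, above all siFto libraries. The fold change was 0.11 (adjusted p = 0.339), and without that library it was 0.18 (adjusted p = 0.0231). Hoxa6 had 5.97, 6.65, 6.21 and 5.96 FPKM in siFto cells and 5.37, 6.005, 6.26 and 5.61 FPKM in siCtr cells, a fold change of 0.09. Hoxa7 had 7.07, 5.74, 6.57 and 7.01 FPKM in siFto cells and 5.99, 7.03, 7.34 and 6.32 FPKM in siCtr cells. The groups of Hoxa7 were interleaved, with a fold change of -0.01, and the sign of this value and of that of Hoxb3 turned under median-ratio scaling.

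Of the HoxB genes, Hoxb2 had 3.92, 3.00, 3.64 and 4.01 FPKM in siFto cells and 3.15, 3.18, 3.34 and 3.31 FPKM in siCtr cells. Hoxb3 had 3.15, 3.05, 3.28 and 3.01 FPKM in siFto cells and 2.95, 3.47, 3.34 and 2.88 FPKM in siCtr cells. Hoxb4, known for its effect on blood stem cells, had 2.50, 2.13, 2.10 and 2.14 FPKM in siFto cells and 1.98, 1.67, 1.72 and 2.33 FPKM in siCtr cells. Their log2 fold changes were 0.14 for Hoxb2, -0.01 for Hoxb3 and 0.17 for Hoxb4, and the groups overlapped for each. Hoxc13 had 3.37, 3.59, 3.21 and 2.97 FPKM in siFto cells and 1.97, 2.98, 3.42 and 2.43 FPKM in siCtr cells, and the siCtr libraries spanned the wider range. Its fold change was 0.26 (SE 0.13, adjusted p = 0.189), and without siCtr replicate 3 it was 0.37 (adjusted p = 0.0470).

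**Figure D3:**
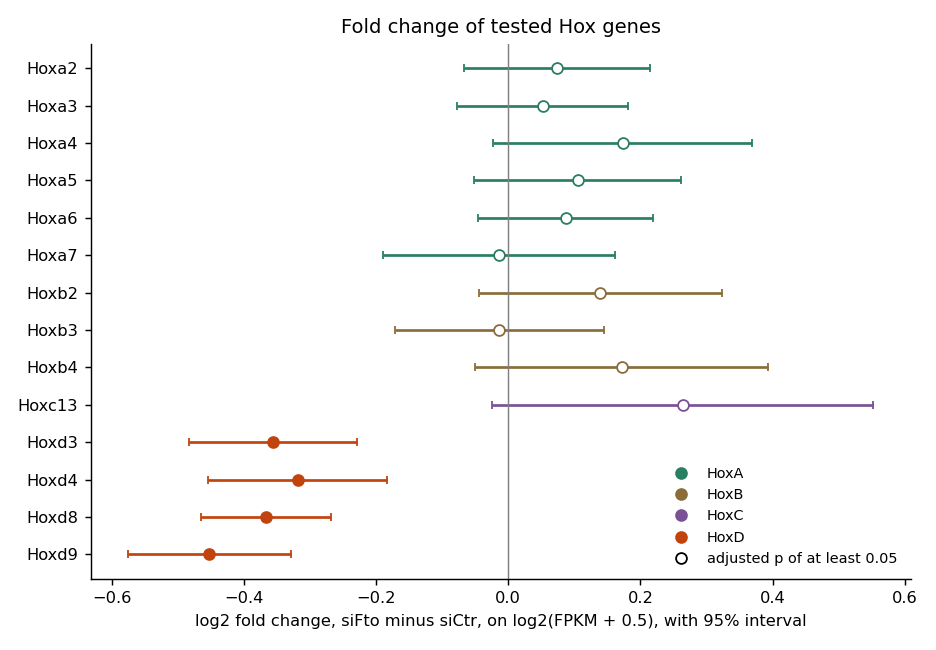
Log2 fold change of tested Hox genes, siFto minus siCtr, with 95% intervals and colours by cluster. Filled points passed the test and open points did not. The 4 HoxD genes lie between -0.45 and -0.32 with intervals below 0, and the other genes drawn lie between -0.01 and 0.26 with intervals that include 0.

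Of the 11 Hox genes outside HoxD, 9 had a positive fold change and 2 a negative one, none with an unadjusted p under 0.05. Their adjusted p ran from 0.189 to 0.926. Their intervals reached no lower than -0.19 (Hoxa7) and no higher than 0.55 (Hoxc13). The intervals of the 4 HoxD genes reached no higher than -0.18 (Hoxd4). A difference between the clusters was not itself tested, and the genes of a cluster are neighbours measured in the same 8 libraries.

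The level of other cells' markers also differed between the libraries. The 7 listed adipocyte markers summed to 3.73 to 6.94 FPKM in siFto cells and 5.197 to 16.6 FPKM in siCtr cells. The top value was that of siCtr replicate 4 alone, and the other siCtr libraries summed to 5.197 to 7.26 FPKM. Adipoq was at 2.32 ± 1.07 FPKM in siFto cells and 4.59 ± 3.08 FPKM in siCtr cells (SD, n = 4 each, adjusted p = 0.163). Of 9 tested fibroblast markers, 6 rose (Thy1, Col1a1, Col1a2, Col3a1, Fbn1 and Ly6a) and 2 fell (Pdgfra and Pdgfrb). Among all tested genes 6.97% rose and 12.3% fell. The 10 listed fibroblast markers summed to 8963 to 10435 FPKM in siFto cells and 8105 to 8844 FPKM in siCtr cells. The part of the blood, adipocyte and fibroblast markers in the HoxD result was not tested, and the 4 HoxD genes were also called lower without siCtr replicate 4. In RNA from whole cultures, fewer cells that express a gene and less of its RNA per cell cannot be told apart.

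Sequence features of the 4 HoxD genes are shown because the genes moved together. Their 250 bases before the transcription start, from RefSeq on GRCm38.p6, plus strand, follow 5′ to 3′, with CCAAT and TATAAA and their reverse complements in capitals.
Hoxd3 (chr2:74711743-74711992): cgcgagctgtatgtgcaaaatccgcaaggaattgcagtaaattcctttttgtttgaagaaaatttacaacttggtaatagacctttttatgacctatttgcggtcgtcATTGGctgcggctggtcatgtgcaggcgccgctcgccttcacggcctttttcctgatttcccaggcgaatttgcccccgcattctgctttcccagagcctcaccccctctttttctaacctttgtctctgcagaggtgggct
Hoxd4 (chr2:74721728-74721977): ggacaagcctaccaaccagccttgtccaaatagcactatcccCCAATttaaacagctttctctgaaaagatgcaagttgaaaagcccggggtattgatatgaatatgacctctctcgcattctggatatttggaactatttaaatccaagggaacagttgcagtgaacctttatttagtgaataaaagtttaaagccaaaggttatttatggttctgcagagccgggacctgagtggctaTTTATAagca
Hoxd8 (chr2:74704365-74704614): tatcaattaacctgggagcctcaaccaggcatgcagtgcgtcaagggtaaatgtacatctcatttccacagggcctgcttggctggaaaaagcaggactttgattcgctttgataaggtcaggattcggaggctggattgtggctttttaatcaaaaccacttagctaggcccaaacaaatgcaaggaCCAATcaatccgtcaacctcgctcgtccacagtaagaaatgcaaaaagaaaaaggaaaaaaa
Hoxd9 (chr2:74697513-74697762): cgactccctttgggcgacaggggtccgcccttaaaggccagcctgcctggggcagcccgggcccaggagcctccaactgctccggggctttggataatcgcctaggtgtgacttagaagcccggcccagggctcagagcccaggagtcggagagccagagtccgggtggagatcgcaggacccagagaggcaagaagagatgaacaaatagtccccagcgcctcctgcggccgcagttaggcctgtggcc
The CCAAT word, searched on both strands, occurred upstream of Hoxd3, Hoxd4 and Hoxd8 but not of Hoxd9. It was held by 14 of 24 windows of the 22 Hox genes matched in the RefSeq table and by 33.8% of all 32851 windows. The TATAAA word, on both strands, was upstream of Hoxd4 alone among the 4, and was held by 4 of the 24 Hox windows and by 12.4% of all windows. The GC content was 49.2% for Hoxd3, 40.4% for Hoxd4, 44.4% for Hoxd8 and 65.2% for Hoxd9, against a median of 58.6% over the Hox windows and 52.4% over all windows. The windows were matched by symbol, not by the deposited mm9 loci. By the shift in coordinates between the builds, the window of Hoxd8 ended upstream of its deposited start. Those of Hoxd3, Hoxd4 and Hoxd9 ended just before theirs. No feature searched was shared by all 4.

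The 3′ UTRs were searched for GACCTTA and ACCTTAA, words that an earlier analysis of the whole series had pointed to in transcripts that fell. At least 1 of them was held by 13.7% of 9802 tested genes with an annotated 3′ UTR and by 27.8% of the 1235 called lower among them. The words were taken from these same data, so the higher share among genes called lower is not independent evidence. Hoxd3 and Hoxd8 held them, and no other of the 15 tested Hox genes did, Hoxd4 and Hoxd9 included. The sites, from GENCODE M21 transcripts on chromosome 2 with the word in capitals, read as follows.
Hoxd3: ttagtttcagaGACCTTAAtttataatgct
Hoxd8: tgtttcaagctACCTTAAtgtcactgctc
In Hoxd3 both words overlap in the same site. The falls of Hoxd3 and Hoxd8, 23.1% and 22.7%, lay between those of Hoxd4 and Hoxd9, 20.4% and 28.4%, which lack the words. The part of the words in these falls was not tested.

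The Hox clusters also hold microRNA genes, whose products repress Hox transcripts among others. The miR-10 genes lie beside Hoxb4 and Hoxd4, and the miR-196 genes beside paralogs of position 9. Their mature sequences from RefSeq, with the seed (bases 2 to 8) in capitals, fall into 2 seed groups.
miR-10a-5p: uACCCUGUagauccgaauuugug
miR-10b-5p: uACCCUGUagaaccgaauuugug
miR-196a-5p: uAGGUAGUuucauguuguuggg
miR-196b-5p: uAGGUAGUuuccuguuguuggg
Tested Hox genes with the miR-10 seed match, ACAGGGT, in the 3′ UTR included Hoxa3 and Hoxb3. The untested Hoxd1 held it too. It was in 15.6% of all tested genes with a 3′ UTR. The match to the miR-196 seed, ACTACCT, was in tested Hox genes including Hoxa4, Hoxa5 and Hoxa7, and in 7.23% of all. The untested Hoxa9, Hoxb1, Hoxb6, Hoxb7 and Hoxc8 also held this match. Hoxa7 held it at 4 places, the first of which reads as follows.
Hoxa7: acagccaaaatACTACCTagcacaggcct
None of the 4 HoxD genes that fell held either match. The precursor genes Mir10a, Mir10b, Mir196a-1, Mir196a-2, Mir196b and Mir615 were listed at 0 in all 8 libraries, and mature microRNAs were not measured here.

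The TALE homeodomain proteins of the Pbx, Meis and Pknox families bind DNA together with Hox proteins. Of 9 listed genes 8 were tested, of which 1 rose, 2 fell and 5 did not pass the test, with a median log2 fold change of -0.06; of all tested genes 19.3% were called. Pknox2 fell without overlap, at 9.94, 10.7, 10.2 and 9.87 FPKM in siFto cells and 11.8, 12.6, 12.4 and 12.99 FPKM in siCtr cells (-0.28, SE 0.04, adjusted p = 0.00254). Meis1 fell by less, at 22.6 ± 1.0 FPKM in siFto cells and 25.1 ± 1.10 FPKM in siCtr cells (-0.15, adjusted p = 0.0429), and Pknox1 rose, at 10.3 ± 0.322 FPKM in siFto cells and 9.32 ± 0.384 FPKM in siCtr cells (0.14, adjusted p = 0.0434; SD, n = 4 each). The calls of Meis1 and Pknox1 were lost in 10 and 9 of the 17 alternatives tried.

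Polycomb complexes keep Hox genes silent outside their domains. Among 32 tested of 33 listed subunit genes, 3 rose, 5 fell and 24 did not pass, with a median of -0.01, and this number of calls was near the 19.3% of all tested genes. Without siFto replicate 2, siFto replicate 4 or siCtr replicate 1, 3 fell. Aebp2 rose to 70.1 ± 1.20 FPKM in siFto cells, against 61.6 ± 2.05 FPKM in siCtr cells, and Rybp to 42.5 ± 0.680 FPKM in siFto cells, against 36.7 ± 2.07 FPKM in siCtr cells. Pcgf3 fell to 22.5 ± 1.06 FPKM in siFto cells, against 26.96 ± 1.32 FPKM in siCtr cells, and Phf1 to 25.5 ± 1.19 FPKM in siFto cells, against 31.4 ± 2.32 FPKM in siCtr cells. Their adjusted p were 0.00444 for Aebp2, 0.00715 for Rybp, 0.00455 for Pcgf3 and 0.00519 for Phf1. Ezh2, the main H3K27 methyltransferase, was at 16.7 ± 0.811 FPKM in siFto cells and 17.3 ± 1.04 FPKM in siCtr cells (-0.05, adjusted p = 0.553). The other called members were Bap1, which rose, and Pcgf5, Cbx7 and Phc1, which fell.

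The MLL/COMPASS methyltransferases and the H3K27 demethylases act in the other sense and keep Hox genes active. All 15 listed genes were tested, and limma called 0 of them, against 19.3% of all tested genes. Among the 15, 1 (Kdm6a) had an unadjusted p under 0.05. Kmt2a, listed as Mll1, was at 11.8 ± 1.21 FPKM in siFto cells and 12.7 ± 1.80 FPKM in siCtr cells (-0.10, adjusted p = 0.557).

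Retinoic acid and the CDX factors set Hox expression in the embryo. Of 21 listed genes 10 were tested, of which 3 rose and 1 fell, against 6.97% and 12.3% of all tested genes, with a median of 0.16. Under median-ratio scaling and under quantile normalization 5 passed as higher, Cyp26b1 and Rdh10 in addition. Crabp2, a carrier of retinoic acid to its receptor, rose to 2.05 ± 0.223 FPKM in siFto cells, against 1.08 ± 0.337 FPKM in siCtr cells (0.71, SE 0.16, adjusted p = 0.0114). The receptor genes moved by less: Rxra was at 48.7 ± 0.874 FPKM in siFto cells and 44.4 ± 0.943 FPKM in siCtr cells (adjusted p = 0.0144), Rara at 25.5 ± 1.38 FPKM in siFto cells and 21.8 ± 2.25 FPKM in siCtr cells (adjusted p = 0.0454), and Rxrb at 23.3 ± 0.526 FPKM in siFto cells and 25.7 ± 0.885 FPKM in siCtr cells (adjusted p = 0.0213). The calls of Rara and Rxrb were lost in 10 and 4 of the 17 alternatives. Cdx2 was listed at 0 in all 8 libraries.

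Other transcription factors that mark body regions were set beside the Hox genes. Of 24 listed limb and body wall factors 12 were tested, 2 fell and none rose, against 12.3% and 6.97% of all tested genes, with a median of -0.05. Without siCtr replicate 3, 1 (Prrx2) passed as higher. Emx2, which acts in the limb girdles, the urogenital tract and the forebrain, fell to 3.61, 3.64, 3.59 and 3.64 FPKM in siFto cells, against 5.23, 4.93, 4.91 and 4.70 FPKM in siCtr cells (-0.40, SE 0.05, adjusted p = 7.09e-04). The siFto libraries were nearly equal and all below the siCtr libraries, and the fall was near those of the HoxD genes. Tbx18, expressed in limb and somite mesenchyme, fell to 15.03 ± 0.560 FPKM in siFto cells, against 17.7 ± 0.471 FPKM in siCtr cells (-0.23, adjusted p = 0.00345). Tbx15, used with Hox genes to tell fat depots apart, was at 26.3 ± 0.834 FPKM in siFto cells and 26.9 ± 0.877 FPKM in siCtr cells (-0.03, adjusted p = 0.612). Pitx1 of the hindlimb was near 0, at 0 FPKM in each siFto library and a mean of 0.0254 FPKM in siCtr cells. Limma called 0 of 7 tested head and craniofacial factors, with 0 at an unadjusted p under 0.05, and 0 of 5 tested axial factors, with 2 (Irx1 and Irx3) at an unadjusted p under 0.05; their medians were 0.04 for the head list and -0.14 for the axial list. In the axial list 1 gene (Irx2) passed as higher without siCtr replicate 3 and 1 (Irx3) as lower without siCtr replicate 1.

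**Figure D4:**
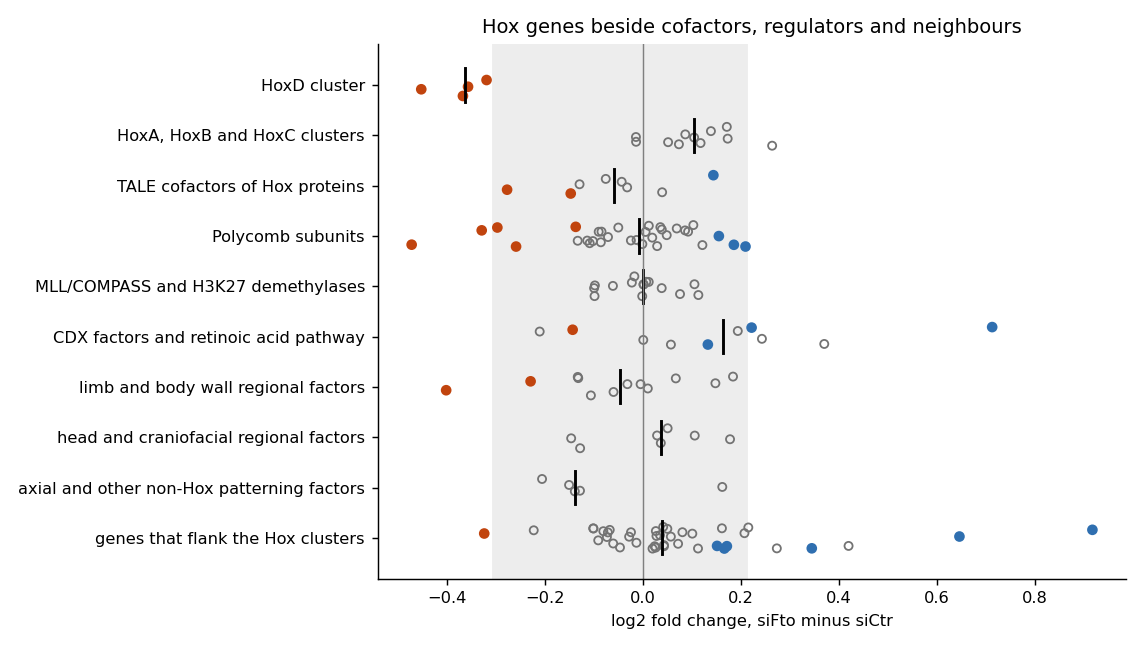
Log2 fold change, siFto minus siCtr, of every tested gene of the HoxD cluster, of the other Hox clusters and of the lists set beside them. Filled points passed the test (blue higher, orange lower), open points did not, black bars are medians, and the grey band holds the central part of all tested genes, from the 5th percentile at -0.31 to the 95th at 0.21. The 4 HoxD genes lie below the lower edge of the band, while most genes of the other lists lie within it.

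The clusters' own noncoding transcripts and their neighbours were examined next. Mira, transcribed beside Hoxa6 and Hoxa7 in HoxA, was the most abundant noncoding transcript of the list, at 24.3 ± 0.934 FPKM in siFto cells and 26.2 ± 1.03 FPKM in siCtr cells (-0.11, adjusted p = 0.105). 2700086A05Rik overlaps Hoxa3, Hoxa5 and Hoxa6. It was at 2.51 ± 0.610 FPKM in siFto cells and 2.68 ± 0.768 FPKM in siCtr cells (-0.07, adjusted p = 0.834). Limma called neither of these 2 tested transcripts, against 19.3% of all tested genes called, and Mira had an unadjusted p under 0.05. Hotair, the noncoding RNA of HoxC, was not analysed here.

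The 40 tested genes nearest to the clusters were 5 on each side of each cluster. Of these, 6 rose and 1 fell, against 6.97% and 12.3% of all tested genes, and 33 did not pass the test. Their median was 0.04. Without siFto replicate 3 or siCtr replicate 4, 3 rose. Gpr155, 1281912 bases before the HoxD cluster in the deposited mm9 loci, rose the most, with 10.98, 10.4, 10.7 and 11.1 FPKM in siFto cells and 5.36, 5.61, 5.13 and 5.79 FPKM in siCtr cells (0.92, SE 0.05, adjusted p = 4.15e-06). It was the only called gene among the 10 beside HoxD, and it moved in the other direction from the HoxD genes. The flanking genes nearest to HoxD did not pass the test. Lnp, 89362 bases before the cluster, was at 7.73 ± 0.179 FPKM in siFto cells and 8.198 ± 0.0958 FPKM in siCtr cells (-0.08, adjusted p = 0.188). Its siFto libraries all lay below its siCtr libraries, as for 15.1% of all tested genes. Mtx2, a mitochondrial gene 60670 bases after the cluster, was at 76.5 ± 6.15 FPKM in siFto cells and 80.2 ± 2.08 FPKM in siCtr cells (-0.07, adjusted p = 0.393). The groups of Mtx2 overlapped.

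Called neighbours of the other clusters are given by the lowest p. Nfe2l1, a stress-response factor 449161 bases after HoxB, rose to 119 ± 3.65 FPKM in siFto cells, against 93.8 ± 3.31 FPKM in siCtr cells (0.35, adjusted p = 2.73e-04). Hnrnpa1 is a splicing factor gene 203580 bases after HoxC. It was at 16.7 ± 1.02 FPKM in siFto cells and 10.6 ± 1.29 FPKM in siCtr cells (0.65, adjusted p = 5.17e-04). Its locus overlaps those of Gm5643 and Gm10052, so the split of fragments among them is uncertain. Both Hnrnpa1 and Gm5643 count among the neighbours that rose. Scrn1, 2247936 bases after HoxA, fell to 18.1 ± 0.844 FPKM in siFto cells, against 22.8 ± 1.0 FPKM in siCtr cells (-0.32, adjusted p = 0.00107).

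The HoxD calls were recomputed under 17 other settings. The same 4 genes, Hoxd3, Hoxd4, Hoxd8 and Hoxd9, were the only Hox genes called lower under each of them. Their log2 fold changes ran from -0.40 to -0.32 for Hoxd3, -0.35 to -0.26 for Hoxd4, -0.40 to -0.33 for Hoxd8 and -0.48 to -0.42 for Hoxd9. The value of Hoxd4 nearest to 0, -0.26, came without siFto replicate 4, its lowest library.

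**Figure D5:**
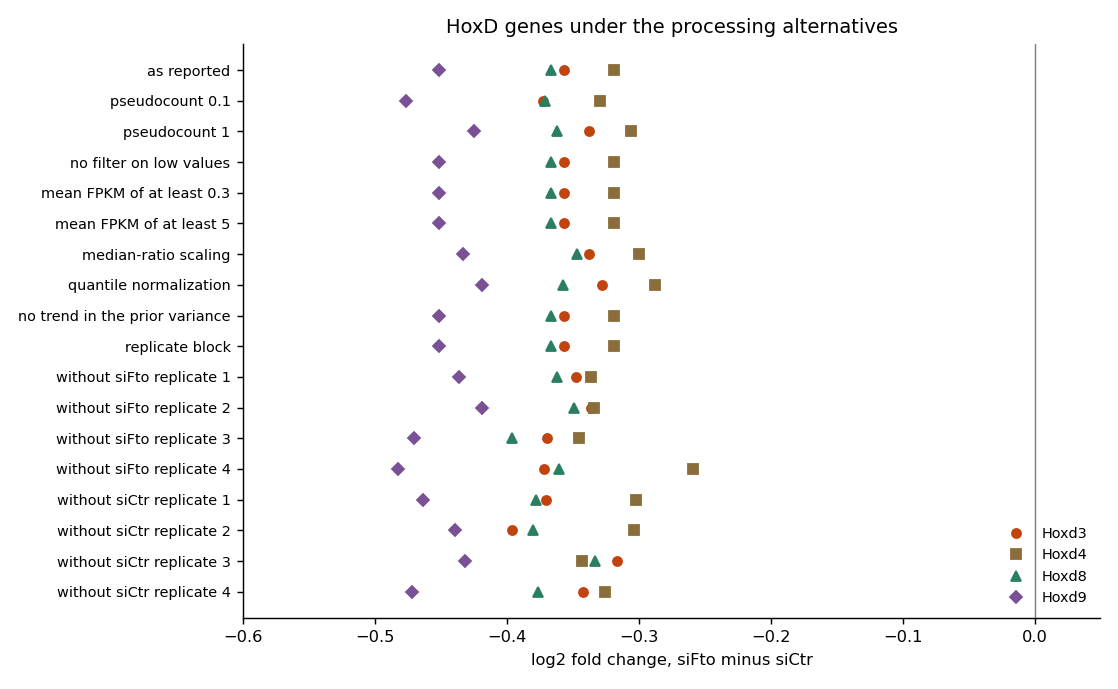
Log2 fold change, siFto minus siCtr, of the 4 HoxD genes as reported (top row) and under each of 17 other settings, a row per setting. All values lie between -0.48 and -0.26, and Hoxd9 has the lowest value in every row.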

How the data were processed

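RNA sequencing of 8 libraries, 4 siFto and 4 siCtr, was analysed as deposited. The authors aligned reads with TopHat2 2.0.11 and used Cufflinks 2.2.1 for gene levels, with build mm9 (per the submitters' processing notes). Values came as deposited FPKM with interval bounds and a status per gene and library per the file headers. They are scaled to transcript length and mapped fragments, so they are not counts, and reads of overlapping genes are divided by a model. All Hox values had the status OK. Deposited starts count from 0 (end minus start equals the RefSeq length for 8902 of 20982 genes, against 549 if counted from 1), and 1 was added.

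The test was limma 3.58.1 in R 4.3.3 with a trended prior variance, two-sided, on log2(FPKM + 0.5). It covered the 11398 genes whose mean reached 1 FPKM, with Benjamini-Hochberg adjustment and a threshold of 0.05. Every adjusted p is from this limma fit or, where a library is left out, its refit. A fold change on this scale understates the change of low genes. Fragments behind a value were worked out from the interval bounds and came out whole within 0.02 for 83.33% of 234 Hox values; intervals cover counting error only. The median upper bound lay 6.59 to 7.55% above the value. In 5 simulated sets with 200 changed genes, the fit called 56 to 69% of those changed by 0.3 on the log2 scale, and 91 to 98% at a change of 0.6, with 5 to 13 false calls. In the data 2195 genes were called. The adjustment depends on how many genes change, so these shares need not hold for the data.

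Every Hox gene enters the counts and sums, and tested ones have values per library, except that a few items are not reported here. Of other lists, a set chosen whatever its values (Fto, Meis1, Pknox1, Ezh2, Kmt2a, Tbx15, Pitx1, Emx2, Cdx2) and up to 4 called members with the lowest p are named with values. Any other gene named in the text was chosen after its values were seen. The members and lists were chosen with earlier results of these data known. Same-numbered libraries did not deviate together (correlations -0.19 to 0.07), so they were not paired. Alternatives varied the pseudocount, filter, scaling, variance trend, replicate block and single libraries. Sequences came from RefSeq (GRCm38.p6) and GENCODE M21 and were matched by symbol; protein sequences were not used here. Python 3.11.15 with numpy 2.4.6, scipy 1.17.1, pandas 2.3.3 and matplotlib 3.10.9 was used.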

Additional observations from a re-analysis of the deposited data

Results flagged for a closer look

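Of 78 combinations of a gene and a group examined, 5 held a library far from the other 3 by Dixon's 95% criterion for 4 samples, and chance gives about 1 in 20. Hoxd4 was at 9.21 FPKM in siFto replicate 4, with the other siFto libraries at 10.9 to 11.1. Hoxd8 was at 44.3 FPKM in siCtr replicate 3, with the other siCtr libraries at 40.1 to 40.5. Without either library the HoxD calls held. Hoxa2 was at 14.9 FPKM in siFto replicate 1, with the others at 17.3 to 17.6, and Hoxb4 at 2.5 FPKM in the same library, with the others at 2.1 to 2.14. Rxra was at 50.1 FPKM in siFto replicate 3, with the others at 48.2 to 48.4.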

How the results depend on the processing

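The number of Hox genes called lower was 4 under each of the 17 alternatives. The number called higher was 0, except without siCtr replicate 3, where it was 2 (Hoxa5 and Hoxc13). The range when single libraries were left out was 0 to 2. Of the 8 libraries, siCtr replicate 3 had the highest FPKM sum, 484842, and the most genes at 0, 8317. The cause of the 2 calls was not tested. Hoxa7 (-0.01) turned to 0.0048 under median-ratio scaling and 0.0175 under quantile normalization, and Hoxb3 (-0.01) to 0.0037 and 0.0426 under the same settings; without single libraries Hoxa7 ranged from -0.0604 to 0.0469 and Hoxb3 from -0.0504 to 0.0272, and neither was called. Over all genes, 549 to 941 were higher and 992 to 1432 lower without single libraries. With the replicate number as a block, the counts were 628 higher and 1133 lower, with the same 4 Hox genes lower and 0 higher. The labels do not say whether the replicate numbers pair these samples, and 0 of 8 libraries correlated best with their own number. Outside the marker lists, the block ended the calls of Pknox1, Rxrb, Rara, Phc1, Snx11 and Tril and added Cyp26b1. Quantile normalization gave 1086 higher and 1207 lower. Both scalings moved the median fold change of all genes from -0.02 to 0.00 or 0.01. Depth limits the 24 untested Hox genes, of which those above 0 rested on at most 34 fragments in a library. Without the filter 35 Hox genes were tested and no further one was called. In the gene lists, TALE calls were 0 higher without the filter and under the block and 1 lower without the filter, under median-ratio scaling and without the variance trend (0 to 1 higher and 1 to 2 lower without single libraries). Retinoic acid and CDX calls were 5 higher under either scaling and 0 lower under the block (2 to 4 higher and 0 to 2 lower without single libraries). Limb calls were 1 lower (Tbx18) at a minimum of 5 FPKM, where fewer genes were tested. They were 3 lower, with Gli3 in addition, at a pseudocount of 0.1 and without the variance trend. With single libraries left out, 0 to 1 were called higher. Flanking calls were 7 higher under either scaling and 4 higher without the filter and under the block. Without single libraries Polycomb calls were 3 to 5 lower, axial calls 0 to 1 in each direction, and flanking calls 3 to 6 higher. The cause of these shifts was not tested.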
